A study of Rattus norvegicus with 12 samples.

Results

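The cytosolic ribosomal protein genes were examined in RNA-Seq libraries of the central nucleus of the amygdala (CeA) from 12 rats. They were taken by name, as symbols beginning with Rps or Rpl followed by a number, the stalk genes beginning with Rplp, and *Rpsa*, with at least 10 counts in at least 6 of the 12 rats. Of 37209 genes listed in the count table, 101 had such a name and 94 reached this minimum. The 94 genes divided into 39 of the small subunit, 52 of the large subunit outside the stalk, and 3 of the stalk, and 19 of them carry the name of a copy or paralog of another member (*Rpl31l4*, for example). All rats were male, wild-type Sprague Dawley animals of 14 to 16 weeks. The 6 rats of the CIE group (chronic intermittent ethanol) breathed ethanol vapor for 14 h and air for 10 h each day over 5 to 7 weeks and were killed right after the last vapor period, so long exposure and ethanol still present at death cannot be told apart. The 6 rats of the Control group breathed air alone. Each library was made from poly-A RNA of CeA tissue punches, which hold neurons, glia and vessels, and in such bulk tissue fewer cells of a type and less RNA per cell cannot be told apart.

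The cytosolic ribosome joins a small (40S) and a large (60S) subunit, each built from ribosomal RNA and a fixed set of proteins. The stalk of the large subunit, formed by Rplp0 with pairs of Rplp1 and Rplp2, recruits the elongation factors. The mRNAs of nearly all ribosomal proteins begin with a stretch of pyrimidines (the 5′ TOP motif), through which mTORC1 and Larp1 control their translation together. Rodent genomes also hold many intron-less copies of these genes, most of them pseudogenes, whose sequences are close to that of the parent mRNA.

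Total counts lay between 61978486 and 78441691 in the CIE group and between 39082548 and 95647601 in the Control group. The 94 genes took 0.268 to 0.416% of all counts in the CIE rats and 0.287 to 0.339% in the Control rats. Of the 7 names below the minimum, *Rps27a* and *Rps4y2* were listed at 0 in every rat, *Rpl39l* reached 10 counts in 4 rats with 25 counts at most, and *Rpl30l1*, *Rpl31l3*, *Rpl34l1* and *Rps15al1* reached it in 0 to 2 rats. Just above the minimum were *Rpl3l* with 8 to 66 counts per rat, *Rps19l1* with 12 to 35 and *Rps28* with 21 to 68.

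None of the 94 genes passed 5% FDR, and the fitted differences were small. In the CIE group 73 of the 94 genes were lower and 21 were higher than in the Control group, with a median log2 fold change of -0.07 and a range of -0.42 to 0.23. The median over all 20944 genes tested was 0.00, and 49.7% of them were lower. At a nominal p value below 0.05 (quasi-likelihood F test of edgeR, two-sided, on 6 against 6 rats) there were 5 genes, or 5.32%, against 8.31% of all genes tested. All 5 were lower in the CIE group, where the background in that direction is 4.31% of all genes. At 5% FDR, adjusted over all genes tested, there were 0 of 94 against 0.363% of all genes, and the smallest FDR was 0.503, that of *Rplp2*. DESeq2 gave 5 genes at the nominal threshold (7.48% of all genes) and 0 at 5% FDR. The 6 CIE and the 6 Control values overlapped in every one of the 94 genes, while they did not overlap in 0.893% of all genes. For the counts listed under each gene's own symbol, and with all rats in the fit, the data bound the size of a difference in most of the 94 genes. The 95% interval lay within a change of 1.5-fold in either direction in 81 genes and within 2-fold in 93, *Rps17l* being the exception (log2 interval -1.09 to 0.25). These intervals do not cover counts listed under copies. In 38 of 75 families of a gene and its copies, the gene itself held under 50% of the counts, as described further on. The intervals also depend on the rats included. Without CIE rat 3 the median log2 fold change was -0.14, and 21 genes passed the nominal threshold.

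The medians are given by position in the ribosome, with no test between positions. The median log2 fold change was -0.07 in the small subunit, where 29 of 39 genes were lower and 2 passed the nominal threshold. It was -0.06 in the large subunit without the stalk, where 41 of 52 were lower and 2 passed. It was -0.10 in the stalk, where all 3 were lower and 1 passed. Among the 19 genes named as copies the median was -0.10, with 14 lower and 0 at the nominal threshold. Of all genes tested, 49.7% were lower and 8.31% passed that threshold.

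**Figure D1:**
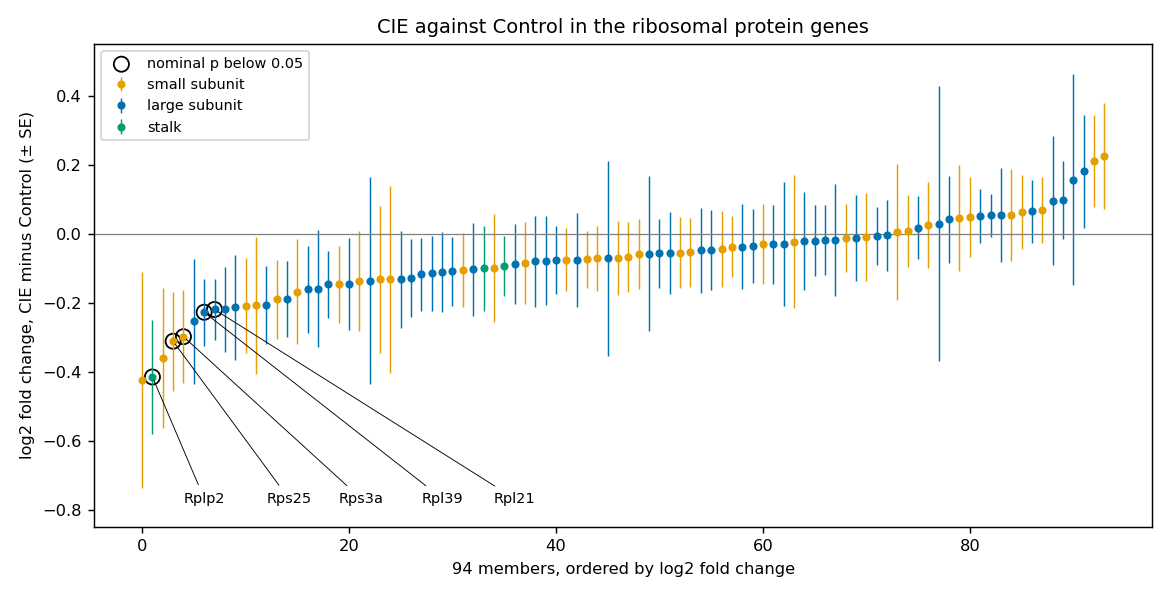
Log2 fold change of each of the 94 ribosomal protein genes, CIE minus Control, with its SE, ordered from the lowest to the highest and coloured by subunit. Circles mark the 5 genes that passed the nominal threshold of 0.05, all on the lower side, and most values lie between -0.2 and 0.1.

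*Rplp2* encodes an acidic protein of the stalk. It had 2.21 CPM (counts scaled to a common library size, with TMM normalization) in the lowest CIE rat, 3.49 at the median and 4.81 in the highest, against 3.99, 4.61 and 5.59 CPM in the Control group. Of the 6 CIE rats 5 lay below every Control rat, and the groups overlapped through the remaining rat. Across all 12 rats this gave a log2 fold change of -0.42 (SE 0.16), with a nominal p value of 0.0241 (exact permutation test of the 6 against 6 log2 CPM values, p = 0.0173) and an FDR of 0.503. The gene had 179 to 436 counts per rat, and most counts of its family stood under another locus, as described further on.

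*Rpl21* encodes a protein of the large subunit. Its lowest, median and highest values were 14.8, 17.8 and 21.8 CPM in the CIE group and 19.8, 21.1 and 23.8 CPM in the Control group. Here 4 CIE rats lay below every Control rat. The fit gave a log2 fold change of -0.22 (SE 0.09), with a nominal p value of 0.0269 (exact permutation test, p = 0.0303) and an FDR of 0.517.

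*Rpl39* encodes a very small protein that lines the tunnel through which the nascent chain leaves the ribosome. It had 4.57, 4.98 and 5.36 CPM as lowest, median and highest value in the CIE group and 5.03, 6.02 and 6.49 CPM in the Control group. All 6 CIE rats were below the Control median and 3 were below every Control rat. Across all 12 rats this gave a log2 fold change of -0.23 (SE 0.10), with a nominal p value of 0.0336 (exact permutation test, p = 0.0195) and an FDR of 0.554.

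In the small subunit the nominal threshold was passed by *Rps3a* and *Rps25*. *Rps3a*, whose protein sits on the platform where the mRNA leaves the subunit, had 11.6, 14.2 and 20.5 CPM in the CIE group (lowest, median and highest) and 16.1, 17.4 and 21.9 CPM in the Control group, with 4 CIE rats below every Control rat. This gave a log2 fold change of -0.30 (SE 0.13), with a nominal p value of 0.0438 (exact permutation test, p = 0.0541) and an FDR of 0.584. *Rps25*, whose protein is used in initiation at some viral internal entry sites, had 3.97, 4.79 and 6.10 CPM against 4.79, 6.07 and 7.88 CPM, with 3 CIE rats below every Control rat. Here the fit gave a log2 fold change of -0.31 (SE 0.14), with a nominal p value of 0.0473 (exact permutation test, p = 0.0563) and an FDR of 0.594.

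The other stalk genes did not pass the nominal threshold. *Rplp0*, the base of the stalk, had 160, 181 and 223 CPM as lowest, median and highest value in the CIE group and 167, 199 and 220 CPM in the Control group, so that the CIE range enclosed the whole Control range. The fold change on the log2 scale was -0.09 (SE 0.09, FDR 0.836). *Rplp1*, the partner of *Rplp2*, had 60.4, 78.6 and 101 CPM against 66.6, 85.3 and 106 CPM, with a log2 fold change of -0.10 (SE 0.12, FDR 0.882).

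Further members stood at the ends of the range without passing the threshold. *Rps17l* had the lowest log2 fold change (-0.42, SE 0.31, FDR 0.786) on 18 to 77 counts per rat. *Rps26*, whose protein touches the mRNA upstream of the start codon, had 2.84, 3.57 and 6.18 CPM in the CIE group and 4.31, 5.12 and 7.29 CPM in the Control group, with 4 CIE rats below every Control rat (log2 fold change -0.36, SE 0.20, FDR 0.695). The highest log2 fold changes were those of *Rps13* (0.23, SE 0.15, FDR 0.766), *Rps19* (0.21, SE 0.13, FDR 0.732), *Rpl38* (0.18, SE 0.16, FDR 0.830), *Rpl31l2* (0.16, SE 0.31, FDR 0.932) and *Rpl22* (0.10, SE 0.11, FDR 0.873). *RPS19* is the gene most often mutated in Diamond-Blackfan anaemia, and Rpl38 is needed for the translation of some Hox mRNAs in the embryo. *Rps19* had 1.99 to 2.57 CPM in the CIE group and 1.64 to 2.23 CPM in the Control group, where all 6 CIE rats lay above the Control median of 1.95 CPM. *Rps13* had 2.08 to 3.77 CPM against 2.09 to 2.43 CPM, the highest value being that of CIE rat 3.

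The best counted members (*Rpl3*, *Rplp0*, *Rps4x*, *Rpl41* and *Rpl4*) had log2 fold changes between -0.13 and 0.00. *Rpl3*, whose protein reaches the catalytic centre, had 10374 to 23090 counts per rat and a log2 fold change of -0.0046 (SE 0.10, FDR 0.994), with 190, 244 and 327 CPM in the CIE group (lowest, median and highest) and 233, 253 and 270 CPM in the Control group. The CIE values spread on both sides of the Control values. *Rpl4*, a protein of the exit tunnel, gave -0.01 (SE 0.09, FDR 0.988) and *Rps4x*, an X-linked gene of the small subunit, -0.04 (SE 0.09, FDR 0.942). *Rpl41*, which encodes a peptide of the large subunit, gave -0.13 (SE 0.11, FDR 0.825) with 113, 125 and 177 CPM against 113, 145 and 174 CPM. The least counted member, *Rps19l1*, had 0.26 to 0.54 CPM in the CIE group and 0.29 to 0.49 CPM in the Control group. *Rpl3l*, the paralog that stands in for *Rpl3* in striated muscle, had 0.32 to 1.02 CPM against 0.21 to 0.89 CPM.

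Where the counts of a ribosomal protein were listed differed widely between families. Each listed gene that the RefSeq annotation names as a copy of a member was assigned to the family of that member, by its LOC number, symbol or synonym. This gave 538 listed genes with counts, 439 of them outside the 94 and its naming rule, of which RefSeq holds 360 as pseudogenes and 77 as protein coding. The families together had 5281372 counts in the 12 rats, and the 94 members held 49.4% of them. With the copies added, the ribosomal protein families took 0.550 to 0.852% of all counts in the CIE rats and 0.569 to 0.688% in the Control rats.

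In 38 of 75 families the gene with the family's own symbol held under 50% of the counts, in 14 under 10% and in 8 under 5%. In 17 families it held 90% or more, and 4 families had a single locus with counts (*Rpl41*, *Rpl22*, *Rpl23* and *Rps29*). The families had a median of 6 loci with counts and at most 18, those of *Rps2*. *Rps7* held 2.70 ± 0.434% (SD, n = 6) of its family in CIE rats and 2.55 ± 0.279% in Control rats, and a single locus that RefSeq names *Rps7-ps23*, a pseudogene, held 80.5% of the family's 163027 counts. *Rpl4* held 39.6 ± 0.412% and 40.4 ± 0.445%, with 59.4% at *Rpl4-ps1*. The share varied little between rats in *Rpl4*, and more in other families, such as *Rpl39* (24.5 ± 4.02% in Control rats). *Rpl37a* has no gene of its own name in the table, and 79.6% of the 84385 counts of its family were listed under *Rpl37a-ps3*. *Rps27a*, which encodes a ubiquitin fused to a small subunit protein, was listed at 0, while 4079 counts, 84.2% of its family, stood at a locus with only a LOC number that RefSeq now calls *Rps27a*. Whether the counts at these loci come from transcripts of the copies or from reads of the parent mRNA placed there was not tested, since the reads were not used here.

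**Figure D2:**
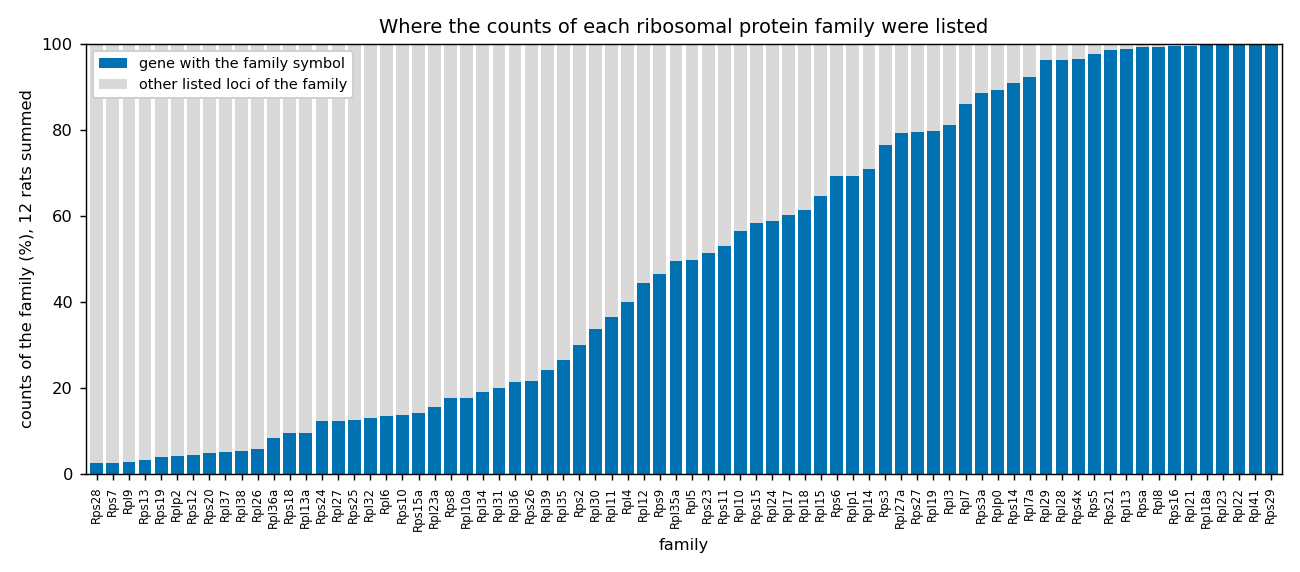
Share of each family's counts, summed over 12 rats, that stood under the gene with the family's symbol (blue) and under other listed loci of the same family (grey), for all but 1 of 75 families. The share runs from under 3% in *Rps28*, *Rps7* and *Rpl9* to 100% in the families with a single locus.

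The difference between the groups was fitted again with the counts of each family summed before normalization. Here paralogs taken by name to have a protein of their own, such as *Rps27l*, were kept as separate families. Of 83 families, 70 were lower in the CIE group, with a median log2 fold change of -0.07. At the nominal threshold there were 3, against 8.38% of all genes in this fit, *Rpl21* (-0.22, FDR 0.525), *Rpl39* (-0.23, FDR 0.562) and *Rps3a* (-0.28, FDR 0.570), and 0 passed 5% FDR. For *Rpl21*, which held 99.5% of its family in CIE rats and 99.7% in Control rats, the sum is almost the gene itself, and *Rps3a* held 88.1% and 89.3%. *Rpl39* held only 24.3 ± 2.20% and 24.5 ± 4.02%, yet the value of the gene and that of its family were nearly equal.

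The nominal values of *Rplp2* and *Rps25* were not found in the sums. *Rplp2* held 3.70 ± 0.546% (SD, n = 6) of its family's counts in CIE rats and 4.64 ± 0.404% in Control rats, and 78.5% stood at a locus that RefSeq names *Rplp2l2*. With the family summed, its log2 fold change was -0.10 (SE 0.11, FDR 0.869) in place of -0.42. *Rps25* held 11.9 ± 2.10% and 13.5 ± 2.05%, with 61.0% at *Rps25l3*, and its sum gave -0.12 (SE 0.10, FDR 0.810) in place of -0.31. The sign turned in 12 families, among them 3 of those with the highest single values. The summed log2 fold change was -0.07 in the family of *Rps13*, -0.04 in that of *Rps19* and -0.13 in that of *Rpl38*, whose own genes held 3.69, 4.38 and 6.01% of the counts in the CIE group. In *Rps28* the sum was also lower than the gene, at 0.00 for the gene with 2.88% of the counts in the CIE group and -0.24 (SE 0.14, FDR 0.711) for the sum. In the 14 families whose own gene held under 10% of the counts, the median SE was 0.15 for the gene and 0.11 for the sum, and it was smaller for the sum in 12 of them.

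**Figure D3:**
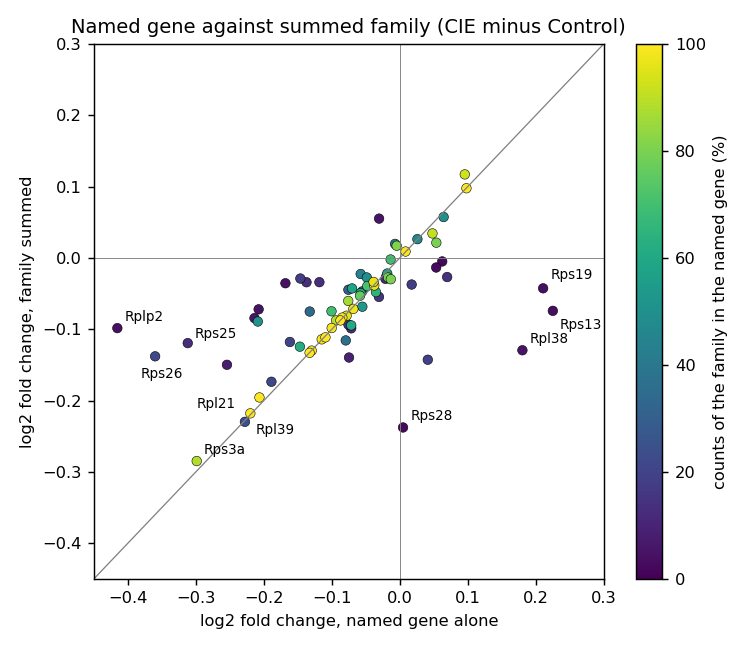
Log2 fold change of the gene with the family's symbol (x axis) against that of the whole family (y axis), CIE minus Control, with the share of counts in the named gene as colour and the line of equality. Families with a share near 100% lie on the line, and those with a small share, such as *Rplp2*, *Rps13* and *Rps19*, are spread widely along the x axis but lie between -0.25 and 0.06 on the y axis.

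Several members are named as copies of other members, and their share of the counts of copy and base gene is given for both groups, with no test. *Rpl31l4* held 79.6 ± 0.591% (SD, n = 6) of the counts of *Rpl31* and *Rpl31l4* together in CIE rats and 78.9 ± 0.918% in Control rats. *Rps10l1* held 84.0 ± 2.93% and 83.3 ± 3.17% beside *Rps10*, and *Rpl5l1* held 50.2 ± 1.67% and 50.4 ± 1.18% beside *Rpl5*, a protein that joins the 5S ribosomal RNA. In these pairs the copy and the base gene can share reads. Beside *Rps12*, *Rps12l2* held 80.2 ± 3.17% and 79.7 ± 1.83% and *Rps12l3* 71.5 ± 3.37% and 69.1 ± 2.34%. Beside *Rps15a*, *Rps15al4* held 79.2 ± 2.04% and 80.6 ± 1.26% and *Rps15al2* 46.0 ± 4.63% and 46.9 ± 2.42%. The remaining copies, *Rpl31l1*, *Rpl31l2* and *Rps19l1*, held between 4.05 and 16.7% in either group.

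Other pairs were taken by name as paralogs that encode proteins of their own, and the protein sequences were not compared. *Rpl22l1*, the paralog of the RNA-binding protein Rpl22, held 55.8 ± 5.24% of the counts of both genes in CIE rats and 61.6 ± 6.16% in Control rats. The CIE rats differed from the Control rats by -0.22 (SE 0.12, FDR 0.695) on the log2 scale in *Rpl22l1*, and *Rpl22* differed by 0.10 (SE 0.11, FDR 0.873), and the groups overlapped in both genes. *Rpl22l2* gave -0.10 (SE 0.14, FDR 0.892). *Rps27l*, a paralog induced by p53, had 3.04, 3.70 and 3.80 CPM in the CIE group (lowest, median and highest) and 3.39, 4.01 and 4.87 CPM in the Control group, with all 6 CIE rats below the Control median (log2 fold change -0.19, SE 0.11, FDR 0.712). *Rps27* gave 0.05 (SE 0.13, FDR 0.946) and *Rps27l3* gave -0.02 (SE 0.19, FDR 0.984). *Rpl36al* and *Rpl36a* gave -0.15 (SE 0.13) and -0.25 (SE 0.18), and *Rpl7l1* and *Rpl7* gave 0.05 (SE 0.06) and -0.08 (SE 0.10). *Rpl10l*, known from the testis, held 3.08 ± 0.935% of the counts of *Rpl10* and *Rpl10l* in CIE rats and 3.41 ± 0.835% in Control rats.

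The 5′ TOP motif lies at the first bases of the transcript, so the sequence around the annotated start was read for 71 of the 94 members with a promoter entry in RefSeq (build GRCr8). The letters CTTTC and CTTCC were searched on the gene's strand in the 10 bases before and the 15 bases from the start. CTTTC was found in 33.8% of the 71 members and in 2.76% of all 27457 promoters, and CTTCC in 23.9 and 4.77%. At least 1 of the motifs was present in 33 members (46.5%) and in 7.35% of all promoters. On the other strand, GAAAG and GGAAG were found in 1.41 and 4.23% of the members and in 3.14 and 5.68% of all promoters. The motifs overlap where both are present as CTTCCTTTC. The starts of the nominal members that have an entry, of the other stalk genes and of *Rpl31* with its copy *Rpl31l1* are printed to show this element, from 35 bases before to 20 bases from the start, which is the thirty-sixth base, with every match in capitals.
Rplp2, chr1:205975886-205975940, plus strand: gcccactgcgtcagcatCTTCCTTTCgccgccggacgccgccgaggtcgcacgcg
Rplp1, chr8:71290853-71290907, minus strand: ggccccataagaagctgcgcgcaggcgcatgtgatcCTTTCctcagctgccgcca
Rplp0, chr12:46718371-46718425, minus strand: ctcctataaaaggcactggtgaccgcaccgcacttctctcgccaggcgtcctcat
Rpl21, chr12:13386134-13386188, minus strand: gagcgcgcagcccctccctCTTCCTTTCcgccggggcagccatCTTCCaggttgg
Rpl39, chrX:121195877-121195931, minus strand: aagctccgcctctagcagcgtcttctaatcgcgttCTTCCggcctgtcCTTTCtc
Rps3a, chr2:173827023-173827077, minus strand: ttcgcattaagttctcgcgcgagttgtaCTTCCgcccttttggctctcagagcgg
Rpl31, chr9:49143076-49143130, plus strand: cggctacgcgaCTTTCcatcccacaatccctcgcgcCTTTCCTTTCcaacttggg
Rpl31l1, chrX:96550180-96550234, plus strand: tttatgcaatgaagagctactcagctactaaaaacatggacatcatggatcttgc

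In *Rpl39*, *Rplp1* and *Rpl31* a match lies at or next to the annotated start. In *Rplp2* the match lies upstream of the searched window. *Rpl21* has the same CTTCCTTTC, which also begins upstream of that window, and is counted through a separate CTTCC after the start. The match of *Rps3a* lies before the start. *Rplp0* and *Rpl31l1* have none in the stretch printed. *Rplp0* does have a run of C and T across its annotated start, which the letters searched do not match. A member without a match can therefore still have a TOP motif. *Rps25* is named only. The 33 members with a match in the searched window had a median log2 fold change of -0.06, with 25 lower and 3 at the nominal threshold. The 38 without had -0.06, with 26 lower and 1 at that threshold. Of all genes tested, 49.7% were lower and 8.31% passed. These groups do not separate genes with a TOP motif from genes without it. Of the members without a match 10 are named copies, against 1 of those with it.

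The 94 genes tended to vary together from rat to rat, the less counted ones less closely. The spread of the sum of all 94 within a group was larger than the difference between the group means. The summed level of the members was 2892, 3110, 4028, 2946, 3220 and 2592 CPM in CIE rats 1 to 6 and 2817, 3296, 3354, 3572, 3396 and 3132 CPM in Control rats 7 to 12. The mean was 3131 ± 489 CPM over CIE rats and 3261 ± 260 CPM over Control rats (SD, n = 6 each). The highest and the lowest sum were both those of CIE rats. CIE rat 3 had the highest value of all 12 rats in 54 of the 94 genes and CIE rat 6 the lowest in 54, and their median deviations from the gene means were 0.32 and -0.29 on the log2 scale. The total counts of these rats, 62638237 and 78441691, were within the range of the others.

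**Figure D4:**
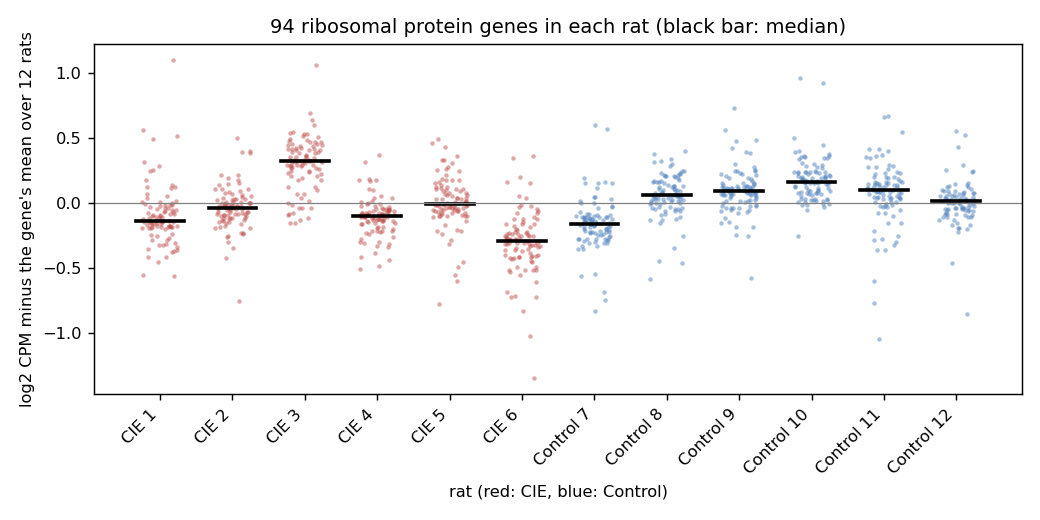
Deviation of each of the 94 genes from its mean over 12 rats, in log2 CPM, with 1 point per gene and the median as a black bar, CIE rats in red and Control rats in blue. CIE rat 3 stands highest with a median of 0.32 and CIE rat 6 lowest with -0.29, and the Control medians lie between -0.16 and 0.16.

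With the group means removed, the median correlation between pairs of members across the 12 rats was 0.57. It was 0.84 among the 38 members with a mean of at least 20 CPM and 0.35 among the 56 below, while pairs of all 8733 genes at this level had a median of 0.01. Mitochondrial ribosomal proteins (42 genes) gave 0.56, nuclear-encoded subunits of complex I of the respiratory chain (32 genes) 0.82 and ribosome biogenesis factors (21 genes) 0.15. All points share the same 12 libraries, and the values are a description.

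Both outlying rats bear on the comparison of the groups. Without CIE rat 3, 21 of the 94 genes had a nominal p value below 0.05, all lower, where 13.3% of all genes did, and the median log2 fold change was -0.14. Without CIE rat 6, 1 gene did (*Rplp2*) against 9.26% of all genes, the median was -0.01 and 49 genes were lower. Without both, an alternative chosen after the values were seen, 8 genes did (*Rpl14*, *Rpl18*, *Rpl21*, *Rpl22l1*, *Rpl26*, *Rpl36*, *Rpl36a* and *Rplp2*) against 13.0% of all genes, 76 were lower and the median was -0.11. At 5% FDR there were 0 in each of these fits. Since CIE rats are numbered 1 to 6 and Control rats 7 to 12, order and group cannot be told apart.

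The other genes of the pathway were read from fixed lists in the same fit. The background was the same, 8.31% of all genes at the nominal threshold and 49.7% lower. Ribosomal proteins that the name pattern misses, *Gnb2l1* and *Fau*, were lower without passing the nominal threshold. *Gnb2l1*, the scaffold protein Rack1 of the small subunit, gave -0.09 (SE 0.08, FDR 0.848) and *Fau* -0.03 (SE 0.11, FDR 0.961). Of 18 translation factors and other genes with TOP mRNAs, 11 were lower, the median was -0.02 and 2 passed the threshold in opposite directions, *Eif3e*, a subunit of an initiation factor (0.23, SE 0.10, FDR 0.538), and *Npm1*, a nucleolar chaperone (-0.19, SE 0.08, FDR 0.566). Of 30 ribosome biogenesis genes 17 were lower, the median was -0.01 and 1 passed, *Noc2l* (0.16, SE 0.06, FDR 0.514).

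Among 18 genes of mTORC1 and regulators of ribosomal protein mRNAs, 12 were higher in the CIE group, with a median of 0.06, and 1 passed the nominal threshold. This was *Ddit4*, a stress-induced inhibitor of mTORC1, with a log2 fold change of 0.43 (SE 0.11, FDR 0.169). It had 59.2, 71.8 and 93.2 CPM as lowest, median and highest value in the CIE group and 46.1, 51.7 and 62.5 CPM in the Control group. Here 5 of the 6 CIE rats lay above every Control rat (exact permutation test, p = 0.00866). *Larp1*, *Mtor* and the other genes of the list did not pass the threshold.

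In the lists that share the rat-to-rat pattern, 61 of 71 mitochondrial ribosomal proteins were lower with a median of -0.06 and 0 at the nominal threshold. Of 39 complex I subunits 37 were lower, with a median of -0.12, and 3 passed it, *Ndufb2* (-0.22, FDR 0.416), *Ndufa11* (-0.23, FDR 0.558) and *Ndufa12* (-0.25, FDR 0.566). At 5% FDR there were 0 genes in these pathway lists. CIE rat 3 was highest and CIE rat 6 lowest of the 12 rats in the summed level of both lists. These rats had 1972 and 1464 CPM in the mitochondrial ribosomal proteins and 2988 and 2120 CPM in complex I. Control rat 10 was close to CIE rat 3, with 1931 CPM in the mitochondrial ribosomal proteins and 2950 CPM in complex I.

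Cell type markers also differed between these rats. The summed level of 9 myelinating oligodendrocyte markers was lowest in CIE rat 3 (3872 CPM), while CIE rat 6 had 9445 CPM and the other CIE rats had 4595 to 6309 CPM. The Control rats had 5742 to 10750 CPM. In the Control group the ribosomal protein sum was highest in rat 10 (3572 CPM), whose marker sum was 10070 CPM. It was lowest in rat 7 (2817 CPM), whose marker sum was 7850 CPM. All 9 markers were lower in the CIE group and 8 passed the nominal threshold, with *Cldn11* (-0.77, SE 0.19, FDR 0.153), *Cnp* (-0.64, FDR 0.189), *Aspa* (-0.43, FDR 0.364) and *Mag* (-0.60, FDR 0.366) having the smallest p values. Their median log2 fold change was -0.54.

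Of the other lists, 6 of 9 endothelial markers (*Slco1a4* is not listed) passed the nominal threshold, 5 of them lower, and their summed level was 251 to 358 CPM in the CIE group, highest in rat 6, and 275 to 344 CPM in the Control group. *Kdr* (-0.92, SE 0.14, FDR 0.0116), a receptor of vascular growth factor, was the 1 marker at 5% FDR. Microglial markers passed in 1 of 10 (*Cx3cr1*, -0.28, FDR 0.169), astrocyte markers in 2 of 8 (*Aqp4*, -0.28, FDR 0.448, and *Sox9*, -0.16, FDR 0.590) and neuronal markers in 1 of 8 (*Tubb3*, -0.20, FDR 0.573). Of all genes tested 8.31% passed. Lower in the CIE group, whether they passed or not, were 9 of 10 microglial, 5 of 8 astrocyte and 4 of 8 neuronal markers. The medians of these lists were -0.07, -0.09 and 0.00. The neuronal sum was 3031 to 3552 CPM in the CIE group, lowest in rat 6, and 3296 to 3560 CPM in the Control group. Markers of central amygdala neurons were tested in 7 of 8 cases (*Tac2* is not listed), and 2 passed (*Crh*, -0.45, FDR 0.472, and *Nts*, -0.46, FDR 0.584). Of these 7 markers 5 were lower and 2 higher, with a median of -0.18. Their summed level, 466 to 1538 CPM in the CIE group and 582 to 1932 CPM in the Control group, was lowest of all rats in CIE rat 6. The part of cell composition in the values of the ribosomal protein genes was not tested.

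**Figure D5:**
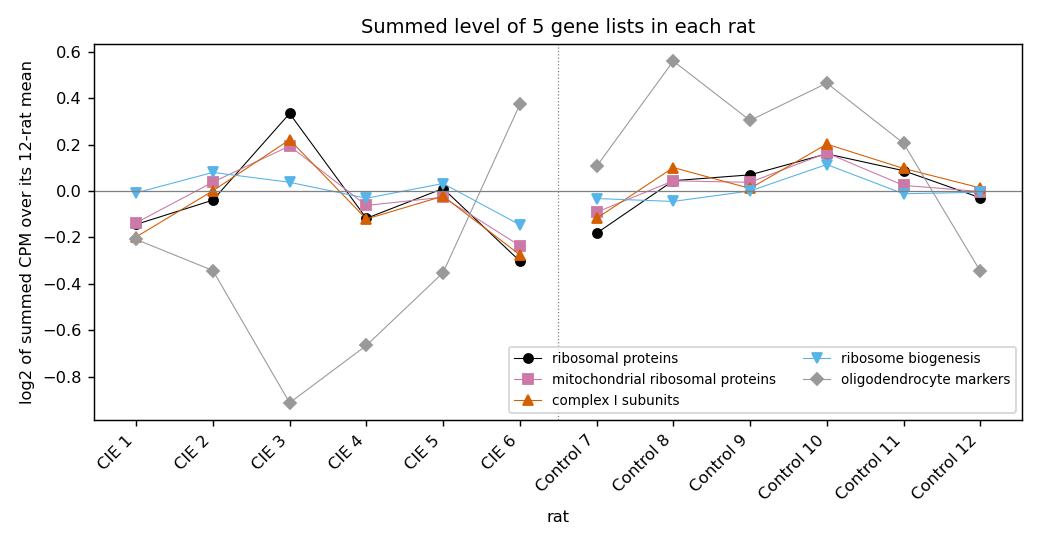
Summed CPM of 5 gene lists in each rat, as log2 of the ratio to the list's mean over 12 rats, CIE rats on the left of the dotted line and Control rats on the right. Ribosomal proteins, mitochondrial ribosomal proteins and complex I subunits run in parallel and peak in CIE rat 3. Among the Control rats these lists are highest in rat 10. The oligodendrocyte markers are lowest in CIE rat 3 at -0.91 and stand at 0.465 in Control rat 10. Ribosome biogenesis genes stay within -0.15 and 0.12.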

How the data were processed

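Poly-A RNA of CeA punches from 6 CIE and 6 Control rats was sequenced, with 1 library per rat. The authors aligned the read pairs to Rnor_6.0 with BWA, which does not split reads over introns, and HTSeq gave the number of reads for each gene. The deposited table holds these raw counts. How reads that match several loci were treated, the strand setting and the annotation are not given in the sources used here. The authors' own test used DESeq2 1.26. Here counts were analysed with edgeR 4.0.16 in R 4.3.3 (TMM, filterByExpr, quasi-likelihood F test of CIE against Control without covariates), which kept 20944 genes, with Benjamini-Hochberg adjustment (FDR) over all of them. CPM are TMM-normalized, and SE follows from the log2 fold change and F. On counts simulated for the comparison of CIE with Control, with 20691 genes, edgeR at 5% FDR recovered 86 of 100 genes with a log2 fold change of 1 and 42 of 100 with one of 0.5, and called 4 of 20491 unchanged genes. Exact permutation tests (two-sided) compared group means of log2 CPM. Alternatives used DESeq2 1.42.0 and limma 3.58.1.

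Genes named are those with a nominal p value below 0.05, the 5 highest and 5 lowest log2 fold changes, the 5 best and 3 least counted members, the stalk, and both genes of each pair of copies. For other lists, at most 4 genes with a nominal p value below 0.05 are named. Genes named for their share of a family's counts (*Rps7*, *Rps28*, *Rpl9*, *Rpl23*, *Rps29*, *Rps2*, *Rpl37a*), those passing without 2 rats, and the motifs were chosen after their values were seen. Some genes of the pairs and lists are not reported here. The members and all lists were chosen with earlier results of these data known. Promoter sequences and family names come from RefSeq GRCr8, whose build differs from that of the counts.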

Additional observations from a re-analysis of the deposited data

Results flagged for a closer look

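For each named ribosomal protein gene, each named gene of the related pathway lists and the summed level of the 94 members, the 6 values of a group were tested with Dixon's criterion at the 95% level. Of 104 groups, 17 passed, where chance alone flags about 1 in 20 groups, or 5.2, and the genes are not independent of each other. In 9 of the 17 the value that stood apart was the highest and came from CIE rat 3. These were *Rpl10* at 82.5 CPM (other CIE rats 50.6 to 61.6), *Rpl10l* at 4.13 (1.28 to 1.87), *Rpl41* at 177.0 (113 to 131), *Rpl5l1* at 66.6 (48.2 to 54.0), *Rps10l1* at 77.0 (49.6 to 57.9), *Rps12l3* at 10.6 (6.87 to 7.78), *Rps13* at 3.77 (2.08 to 2.61), *Rps15al4* at 39.7 (24.7 to 29.6) and *Rps27* at 23.2 (12.2 to 15.1). CIE rat 1 had the highest *Rpl3l* value, 1.02 CPM (0.32 to 0.52), in a gene with few counts.

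In the Control group, rat 7 was lowest in *Rps15al2* (5.40 CPM, others 6.65 to 7.03), *Rps15al4* (26.5, others 31 to 33) and *Rps27* (12.1, others 15.0 to 16.3). Control rat 11, which had the fewest total counts, was lowest in *Rpl22* (8.89 CPM, others 13.4 to 15.1) and highest in *Rps26* (7.29, others 4.31 to 5.29). Control rat 10 was highest in *Rps13* (2.43, others 2.09 to 2.16), and Control rat 9 was lowest in *Rps15a* (7.01, others 7.40 to 7.63).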

How the results depend on the processing

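The fit was repeated in 19 ways set at the outset and 1 added after the values were seen (without both CIE rats 3 and 6). In each of these fits 0 members passed 5% FDR and the median log2 fold change was negative, between -0.14 without CIE rat 3 and -0.01 without CIE rat 6. The number of members at the nominal threshold, 5 of 94 against 8.31% of all genes, was 4 with DESeq2 size factors (8.37% of all genes), 5 with DESeq2 (7.48%), with no filter (7.7%) and with at least 10 counts in every rat (8.61%), 3 with copies summed by family (8.38%), 2 with library size only (8.39%), 11 with limma-voom and sample quality weights (17.2%) and 8 without both CIE rats 3 and 6 (13.0%). At p below 0.01 in the fit reported it was 0 (2.67%). With 1 rat left out it ranged from 1 to 21, and the share of all genes from 6.38 to 13.3%. It was 21 without CIE rat 3 (13.3% of all genes), 1 without CIE rat 4 (6.58%), CIE rat 6 (9.26%) or Control rat 11 (6.39%), 2 without CIE rat 1 (6.66%) or Control rat 10 (11.4%), and 3 without Control rat 8 (6.47%), 9 (6.38%) or 12 (8.07%). All members that passed were lower in the CIE group.

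Signs turned in members near 0 or, with copies summed, in members with a small share of their family. With copies summed, the log2 fold change was -0.129 for *Rpl38*, -0.0742 for *Rps13*, -0.0268 for *Rps15a*, -0.0426 for *Rps19*, 0.0171 for *Rpl3*, 0.0196 for *Rpl4* and 0.0184 for *Rps27l3*. With library size only, it was 0.000436 for *Rpl10*, 0.014 for *Rpl3*, 0.0119 for *Rpl4* and 0.012 for *Rps12l3*. DESeq2 size factors and DESeq2 gave 0.00435 and 0.0037 for *Rpl3* and 0.00205 and 0.0014 for *Rpl4*. Limma-voom gave -0.0523 for *Rps15al2* and -0.0446 for *Rps27*. Without both rats, *Rps15al2* was at -0.0594, *Rps27* at -0.0971 and *Rps27l3* at 0.0122. With 1 rat left out, the value ranged from -0.127 to 0.0311 for *Rpl10*, -0.0926 to 0.0681 for *Rpl3*, -0.281 to 0.269 for *Rpl3l*, -0.0822 to 0.0313 for *Rpl4*, -0.0132 to 0.087 for *Rpl5l1*, -0.127 to 0.0384 for *Rps10l1*, -0.106 to 0.0793 for *Rps12l3*, -0.11 to 0.114 for *Rps15al2*, -0.0884 to 0.116 for *Rps27*, -0.13 to 0.0708 for *Rps27l3* and -0.116 to 0.00577 for *Rps4x*. The cause of these shifts was not tested.

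Of the 5 members at the nominal threshold, *Rplp2* stayed below it in every fit but those with copies summed and without Control rat 10. The other members crossed it when single rats were left out. All 94 members also passed filterByExpr. No paired analysis was possible because the rats carry the numbers 1 to 6 and 7 to 12, which the groups do not share.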
